A study of Mus musculus with 32 samples.

Results

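The genes described here encode 6 proteins of PML bodies and their nuclear partners: the PML body organiser *Pml*, the speckled proteins *Sp100*, *Sp110* and *Sp140*, and the histone H3.3 partners *Daxx* and *Atrx*. They were found in the count table by their Ensembl identifiers, and they make up 6 of 54281 gene identifiers. All 6 were among the 15257 genes that passed the filter on low counts. The set was chosen by the values of *Sp140* in *Trex1* FL/FL cells exposed to 4-hydroxytamoxifen (4-OHT), while the other 5 genes were added as members of the same family or structure. For *Sp140*, values that involve these libraries are therefore given as a description, without a test. The other 5 were tested, but the members were chosen with earlier results of these data known. Their p-values may not be free of this choice.

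The cells were macrophages grown from mouse bone marrow (BMDMs) in L929-conditioned medium, and RNA sequencing gave 1 library per sample. The donor genotypes were *Trex1* FL/FL R26-CreERT2, with Cre target sites around both *Trex1* alleles, and *Trex1* WT/FL R26-CreERT2, with 1 allele that Cre cannot remove. Both genotypes carry the tamoxifen-activated Cre recombinase driven by the R26 locus, which is active in most cell types, so the treated controls also experienced Cre activity and lost 1 allele. Cells of each genotype were left untreated or received 2 µg/ml 4-OHT for 22 h, and were harvested 1, 2, 3 or 4 days after the exposure had ended. Each of the 16 groups held 2 libraries, and no label says whether these came from separate mice or cultures, so p-values measure the spread between libraries, which may be technical. The study compared the genotypes to follow gene expression after induced loss of TREX1, a DNA exonuclease that keeps self-DNA from triggering type I interferon (IFN).

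PML bodies are spherical structures in the nucleus that are built by PML protein and held together by the modifier SUMO. SP100 is a permanent resident, SP110 and SP140 are its relatives with a SAND domain and chromatin-reading domains, and DAXX reaches the bodies through SUMO and deposits histone H3.3 together with the remodeller ATRX. In macrophages and other cells, *Pml*, *Sp100*, *Sp110*, *Sp140* and *Daxx* are known as genes that IFN induces, and SP140 is known to restrain type I IFN in mice.

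On GRCm39, *Sp110*, *Sp140* and *Sp100* lie next to each other on chromosome 1. *Sp110* (ENSMUSG00000070034) spans chr1:85498456-85526604 on the minus strand, *Sp140* (ENSMUSG00000070031) chr1:85528099-85572758 on the plus strand and *Sp100* (ENSMUSG00000026222) chr1:85577709-85637719 on the plus strand. By these spans, *Sp110* and *Sp140* point away from each other across a gap of 1494 bases, and 4950 bases separate *Sp140* from *Sp100*. *Pml* (ENSMUSG00000036986) lies at chr9:58124456-58157169 on the minus strand, *Daxx* (ENSMUSG00000002307) at chr17:34128384-34134564 on the plus strand and *Atrx* (ENSMUSG00000031229) at chrX:104841131-104973014 on the minus strand.

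The promoters of the 3 neighbours are shown because these genes are adjacent and moved together, although *Pml* and *Daxx* on other chromosomes took the same course. The windows are from RefSeq (table build GRCm38.p6), run 5′ to 3′ from 250 bases before to 50 bases after a start, and each was found at 1 place in GRCm39: chr1:85526482-85526781 (minus strand, *Sp110*), chr1:85528174-85528473 (plus strand, *Sp140*) and chr1:85577459-85577758 (plus strand, *Sp100*). Capitals mark the longest ungapped stretch with at most 1 mismatch that windows of different members shared on the same strand.
Sp110: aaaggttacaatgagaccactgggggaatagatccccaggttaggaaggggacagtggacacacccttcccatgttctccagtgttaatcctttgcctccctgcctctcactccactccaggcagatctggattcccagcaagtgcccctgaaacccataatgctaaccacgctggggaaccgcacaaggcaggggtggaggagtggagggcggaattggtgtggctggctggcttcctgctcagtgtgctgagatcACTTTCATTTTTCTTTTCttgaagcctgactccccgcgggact
Sp140: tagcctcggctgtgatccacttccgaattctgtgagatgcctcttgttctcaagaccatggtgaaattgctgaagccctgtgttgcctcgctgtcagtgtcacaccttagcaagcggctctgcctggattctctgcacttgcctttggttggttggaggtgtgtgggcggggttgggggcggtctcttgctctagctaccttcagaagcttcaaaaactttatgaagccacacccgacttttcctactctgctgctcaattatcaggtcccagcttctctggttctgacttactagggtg
Sp100: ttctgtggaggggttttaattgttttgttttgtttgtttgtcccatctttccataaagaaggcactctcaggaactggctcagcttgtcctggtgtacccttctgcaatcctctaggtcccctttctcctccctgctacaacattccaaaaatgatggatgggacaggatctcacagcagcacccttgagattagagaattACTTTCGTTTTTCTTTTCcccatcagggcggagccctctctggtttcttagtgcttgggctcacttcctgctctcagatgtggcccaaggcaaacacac
The stretch is 18 bases long with 1 mismatch and begins 49 bases before the *Sp100* start and at base 8 after the *Sp110* start. It was picked after the windows had been seen. Its shared letters, ACTTTCNTTTTTCTTTTC, were found on either strand in 4 of 32851 promoter windows (0.0122%), which belong to 3 genes, *Sp100*, *Sp110* and *Gm7609*. The *Sp100* and *Sp110* windows from which the letters were taken are among these, so the share does not measure how rare the stretch is. The *Sp140* window does not hold the stretch. Nor does the other *Sp110* window (chr1:85531563-85531862, minus strand, not printed), which lies inside the span of *Sp140*. The other *Sp100* window (chr1:85577485-85577784, not printed) holds it. As motifs of IFN-activated transcription factors, the ISRE core (TTTC, any 2 bases, TTTC, 3.44% of all windows) and the GAS core TTCNNNGAA (8.3%) were searched on both strands, and 0 of the 10 windows of the 6 members held either. This says only that these letters are not in the windows.

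Total counts ran from 35120505 to 63760884 per library, and replicates of a group differed from each other by more than sampling noise in all 16 groups (chi-square per degree of freedom 9.07 to 49.0). *Trex1* was listed at 0 counts in 6 of the 8 4-OHT-treated *Trex1* FL/FL libraries and at up to 14 in the others, against 758 to 3622 in treated *Trex1* WT/FL libraries and 1174 to 6553 in all untreated libraries. All 31-base words of the *Trex1* transcripts also occur in *Atrip* transcripts, so the division of reads between both genes is uncertain. The 7 macrophage markers summed to 15000 to 47900 CPM (counts scaled to library size) in every library, while T or NK cell markers reached at most 0.212, dendritic cell markers 2.47, stromal markers 2.27, B cell markers 6.58 and neutrophil or progenitor markers 18.8. In *Trex1* FL/FL cells given 4-OHT, the macrophage sum was 26200 to 28300 on day 2 and 38300 to 38700 on day 3, below the range of treated *Trex1* WT/FL cells (31700 to 33700 and 45000 to 47300). The part of this shift in the results below was not tested, and in bulk samples fewer cells of a type and less RNA per cell cannot be told apart.

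The members other than *Atrx* followed the same course. *Pml*, *Sp100*, *Sp110*, *Sp140* and *Daxx* were low on day 1 in every group, rose to day 2 in every group, and from day 2 on stood higher in both 4-OHT-treated *Trex1* FL/FL libraries than in the other 6 libraries of the day. *Atrx* stayed between 134 and 206 CPM in all 32 libraries. Library size for the CPM includes TMM factors.

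**Figure D1:**
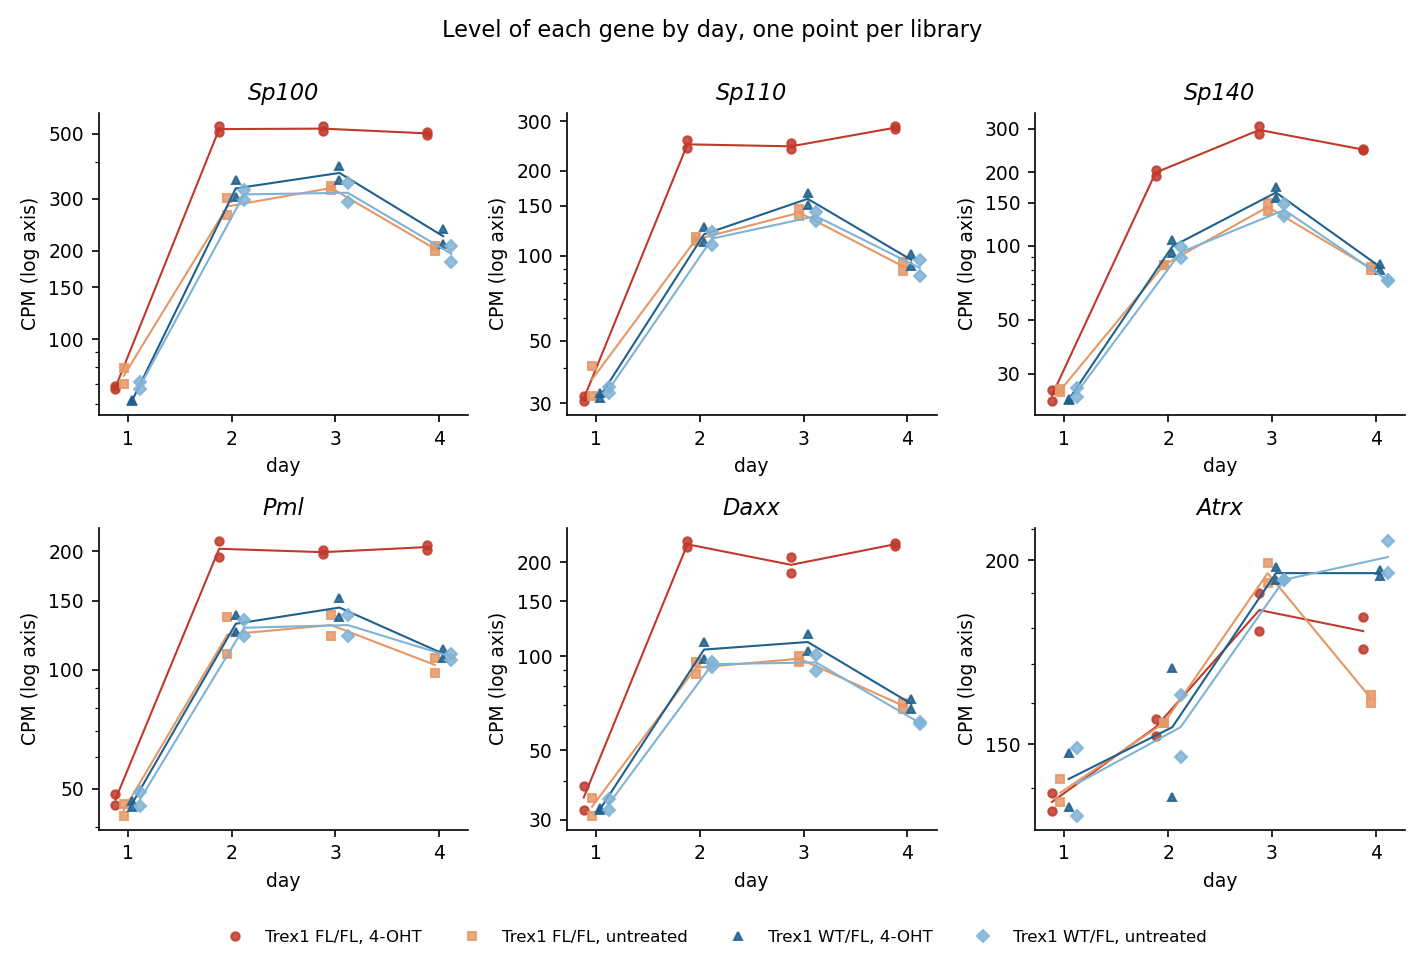
CPM of each gene on a log axis against day, with 1 point per library, lines through the mean of 2 libraries and a colour for each combination of genotype and treatment. From day 2 on, both treated *Trex1* FL/FL libraries lie above the other 6 in every panel other than *Atrx*, for example at 496 and 509 against 183 to 237 CPM for *Sp100* on day 4.

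*Pml* organises the bodies and recruits their other proteins. On day 1 it was read at 48.5 and 45.5 CPM in treated *Trex1* FL/FL, 46.6 and 44.9 in treated *Trex1* WT/FL, 42.6 and 45.6 in untreated *Trex1* FL/FL and 49.0 and 45.3 in untreated *Trex1* WT/FL libraries. On day 2 the values, in the same order, were 212 and 194, 138 and 125, 136 and 110, and 134 and 122. The groups overlapped on day 1, and on day 2 the treated *Trex1* FL/FL libraries stood apart. They remained near this level, with 201 and 197 CPM on day 3 and 202 and 208 on day 4. The other 6 libraries ranged from 122 to 152 on day 3 and from 98.3 to 113 on day 4, so the gap was widest on day 4.

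*Sp100* encodes a lasting component of the bodies. Day 1 gave 69.0 and 67.7 CPM in treated *Trex1* FL/FL, 61.4 and 61.9 in treated *Trex1* WT/FL, 70.1 and 79.7 in untreated *Trex1* FL/FL and 71.3 and 67.7 in untreated *Trex1* WT/FL libraries. Day 2 gave 507 and 530, 347 and 304, 302 and 265, and 323 and 298. Treated *Trex1* FL/FL cells held this level, with 511 and 530 CPM on day 3 and 496 and 509 on day 4, whereas the other 6 libraries lay at 292 to 390 on day 3 and at 183 to 237 on day 4.

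*Sp110*, whose protein carries a SAND domain like that of SP140, was read on day 1 at 30.5 and 31.7 CPM in treated *Trex1* FL/FL, 32.5 and 31.2 in treated *Trex1* WT/FL, 31.9 and 40.8 in untreated *Trex1* FL/FL and 32.6 and 34.3 in untreated *Trex1* WT/FL libraries. On day 2 these groups stood at 240 and 256, 126 and 112, 116 and 113, and 121 and 109. In treated *Trex1* FL/FL cells the level was 251 and 238 on day 3 and 287 and 281 on day 4, the highest of the course. The other 6 libraries ranged from 133 to 167 on day 3 and fell back to 84.4 to 101 on day 4.

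*Sp140*, the reader of chromatin marks on whose values the set was chosen, started at 23.2 and 25.7 CPM in treated *Trex1* FL/FL, 23.4 and 23.7 in treated *Trex1* WT/FL, 26.1 and 25.4 in untreated *Trex1* FL/FL and 26.3 and 24.1 in untreated *Trex1* WT/FL libraries. Day 2 values were 193 and 204, 106 and 93.1, 83.5 and 83.5, and 98.5 and 89.5. *Sp140* was the only member for which both libraries of day 3 were above both libraries of day 2 and of day 4 in all 4 combinations of genotype and treatment. Day 3 values were 307 and 287, 157 and 173, 149 and 139, and 132 and 148. On day 4 the treated *Trex1* FL/FL libraries gave 247 and 248 CPM and the other 6 gave 71.9 to 84.5, without overlap.

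*Daxx*, the H3.3 chaperone, began at 38.5 and 32.1 CPM in treated *Trex1* FL/FL, 32.1 and 32.8 in treated *Trex1* WT/FL, 35.1 and 30.8 in untreated *Trex1* FL/FL and 34.9 and 32.3 in untreated *Trex1* WT/FL libraries. It reached 233 and 223, 111 and 98.2, 95.6 and 87.9, and 96.1 and 92.5 on day 2. Treated *Trex1* FL/FL cells gave 207 and 184 on day 3 and 231 and 225 on day 4. The other 6 libraries gave 89.6 to 118 on day 3 and 60.9 to 73.0 on day 4, again without overlap.

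*Atrx*, the remodeller that works with DAXX, differed from its partner. Treated *Trex1* FL/FL libraries gave 139 and 135 CPM on day 1, 156 and 152 on day 2, 179 and 190 on day 3 and 174 and 183 on day 4. The other 6 libraries gave 134 to 149, 138 to 169, 193 to 199 and 160 to 206 on these days. The groups overlapped on days 1, 2 and 4, and on day 3 both treated *Trex1* FL/FL libraries were below the other 6. On day 4 the low values among these 6 were the untreated *Trex1* FL/FL libraries with 160 and 162.

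Compared per length, as CPM per kb of the joined exons, the members other than *Sp110* were close to each other on day 1. This closeness and the order of the members depended on the length used. In untreated *Trex1* WT/FL cells, levels per kb were 8.46 ± 0.471 (SD, n = 2) for *Daxx*, 7.46 ± 0.459 for *Sp140*, 7.16 ± 0.263 for *Sp100*, 6.66 ± 0.366 for *Pml*, 6.47 ± 0.506 for *Atrx* and 3.21 ± 0.115 for *Sp110*. *Sp140* and *Sp100*, and *Pml* and *Atrx*, did not differ beyond their spread. Per kb of the longest transcript, *Sp110* did not stand apart in untreated *Trex1* WT/FL cells on day 1. There, *Sp100* led with 18.3, before *Atrx* with 13.6, *Sp110* with 12.4, *Daxx* with 11.3, *Sp140* with 10.2 and *Pml* with 8.54. In treated *Trex1* FL/FL cells on day 4, the order was *Sp140* with 73.2 ± 0.132, *Daxx* with 57.5 ± 1.09, *Sp100* with 51.7 ± 0.977, *Pml* with 28.9 ± 0.621, *Sp110* with 27.2 ± 0.4 and *Atrx* with 8.19 ± 0.291. This order depends on the length used: per kb of the longest transcript, *Sp100* led on day 4 with 132 CPM per kb, before *Sp110* with 105, *Sp140* with 100, *Daxx* with 77.1, *Pml* with 37.1 and *Atrx* with 17.3.

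The first comparison was between genotypes after 4-OHT, which addresses the effect of losing both *Trex1* alleles. *Pml*, *Sp100*, *Sp110* and *Daxx* were higher in *Trex1* FL/FL cells on days 2, 3 and 4, *Sp140* took the same course, and *Atrx* did not pass the test on any day. A gene passed at an adjusted p below 0.01 (edgeR's quasi-likelihood test, Benjamini-Hochberg adjusted over 15257 genes). Counts below are over the 5 members other than *Sp140*. On day 1, 0 of 5 passed, also with DESeq2 and at an unadjusted p below 0.05, and 0.00655% of all tested genes were higher. On days 2, 3 and 4, 4 of 5 were higher, where 5.69%, 6.69% and 9.84% of all tested genes were. Since the set was chosen on this contrast, nothing is read from these shares.

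**Figure D2:**
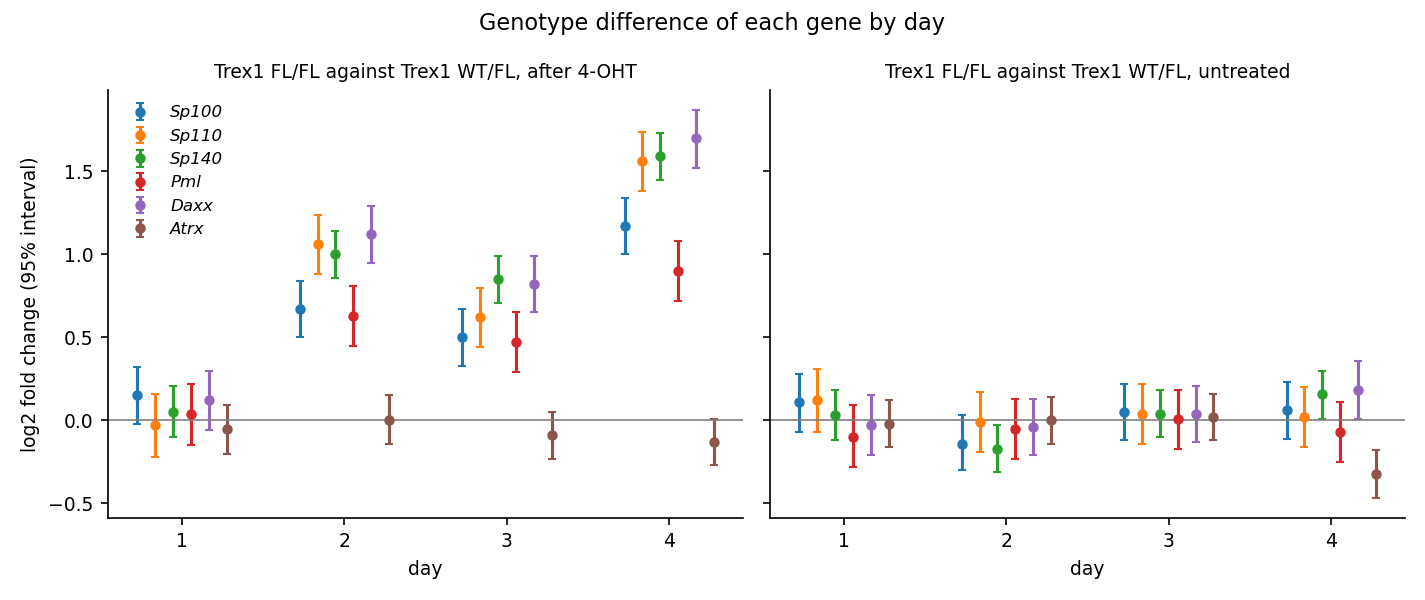
Log2 fold change of *Trex1* FL/FL against *Trex1* WT/FL cells by day, after 4-OHT (left) and untreated (right), with 95% intervals from the fit of 2 libraries per group. The intervals of *Sp140* after 4-OHT belong to values on which the set was chosen and are no test. After 4-OHT, the genes other than *Atrx* lie above 0 from day 2 on and reach 0.90 to 1.70 on day 4, *Atrx* lies between -0.13 and 0.00, and untreated cells lie between -0.32 and 0.18.

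*Daxx* had the largest value on days 2 and 4. Its log2 fold change was 0.12 on day 1, 1.12 on day 2 (SE 0.0833, adjusted p = 4.46e-10), 0.82 on day 3 (SE 0.0829, adjusted p = 5.62e-08) and 1.70 on day 4 (SE 0.0849, adjusted p = 3.26e-14), which is a 3.24-fold higher level. *Sp110* gave -0.03, 1.06, 0.62 and 1.56 on the 4 days, with adjusted p = 7.32e-13 on day 4. *Sp100* gave 0.15, 0.67, 0.50 and 1.17, with adjusted p = 2.81e-11 on day 4. *Pml* had the smallest differences of the 4 with 0.04, 0.63, 0.47 and 0.90, and adjusted p = 8.8e-09 on day 4. For *Pml* on day 3, the adjusted p rose from 0.000251 to 0.0144 without replicate 1 of the treated *Trex1* WT/FL group of that day. *Sp140* gave 0.05, 1.00, 0.85 and 1.59, the last a 3.01-fold higher level. The values of all 5 were lower on day 3 than on days 2 and 4.

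With the stricter threshold, which also asks for a log2 fold change above 1.5, 0 of 5 passed on days 1, 2 and 3 and 2 of 5 on day 4, where 0.00655%, 0.498%, 0.485% and 1.65% of all tested genes passed and were higher. The 2 genes were *Sp110*, just inside with 1.56, and *Daxx*, and the next below was *Sp100* with 1.17. Without the fold threshold, edgeR and DESeq2 both gave 4 of 5 on days 2, 3 and 4, and 4 of 5 had an unadjusted p below 0.05. *Atrx* gave -0.05, 0.00, -0.09 and -0.13, with a 95% interval of -0.27 to 0.01 on day 4 and adjusted p of 0.169 to 1.

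The genotype difference itself changed between days. From day 1 to day 2 it grew in 4 of 5 members, by 1.09 in *Sp110* (adjusted p = 4.95e-06), 1.00 in *Daxx* (adjusted p = 5.02e-06), 0.59 in *Pml* (adjusted p = 0.00351) and 0.52 in *Sp100* (adjusted p = 0.00647), where 2.67% of all tested genes grew. With 1 library left out, *Sp110* and *Daxx* passed in each of 8 fits, but the count over the members dropped to 2 in 5 of them, since *Sp100* and *Pml* no longer passed. *Sp100* no longer passed in 7 of the 8 fits (0.43 to 0.55), also without replicate 1 of treated *Trex1* FL/FL day 1 and replicate 2 of treated *Trex1* FL/FL day 2. The 5 fits without both lacked replicate 2 of treated *Trex1* FL/FL day 1, replicate 1 of treated *Trex1* FL/FL day 2, either replicate of treated *Trex1* WT/FL day 1 or replicate 2 of treated *Trex1* WT/FL day 2. From day 2 to day 3, the change passed in 0 of 5 members (edgeR, and 2 at an unadjusted p below 0.05) and in 0.905% of all tested genes in either direction, with the lowest value in *Sp110* (-0.44, adjusted p = 0.0528). From day 3 to day 4 it grew again in 3 of 5, by 0.94 in *Sp110*, 0.88 in *Daxx* (adjusted p = 1.3e-05 for both) and 0.67 in *Sp100* (adjusted p = 0.000384), against 1.67% of all tested genes. *Pml* gave 0.43 (adjusted p = 0.0301). *Sp140* gave 0.95, -0.15 and 0.74 at the 3 steps.

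Treated *Trex1* FL/FL cells were also set against untreated cells of the same genotype. These values share the treated libraries with the comparison above and are no independent evidence. Passing members were 0 of 5 on day 1 (edgeR and DESeq2, and 1 at an unadjusted p below 0.05, *Sp110*, with a lower level at -0.23, where 0.0% of all tested genes were called higher and 1068 had an unadjusted p below 0.05) and 4 of 5 on days 2, 3 and 4, where 7.49%, 8.12% and 10.2% of all tested genes were higher. Without replicate 1 of the untreated *Trex1* FL/FL group of day 1, *Sp110* passed as lower (-0.39, adjusted p = 0.00466). On day 4, 4-OHT treatment raised *Daxx* by 1.72 (log2), *Sp110* by 1.63, *Sp100* by 1.30 and *Pml* by 0.99, and the value of *Sp140* was 1.62. *Atrx* gave 0.16 (adjusted p = 0.0966).

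The effect of 4-OHT was then compared between genotypes, as a difference of differences. It was larger in *Trex1* FL/FL cells for 4 of 5 members on days 2 and 4 and for *Sp110* and *Daxx* on day 3, where 3.55%, 5.15% and 2.65% of all tested genes were. On day 1 it passed for 0 of 5 members by edgeR and DESeq2, with 0 at an unadjusted p below 0.05, and for 0.0% of all tested genes (545 at an unadjusted p below 0.05 in either direction). The day 4 values were 1.54 for *Sp110*, 1.52 for *Daxx*, 1.11 for *Sp100* and 0.97 for *Pml*, with adjusted p between 6.18e-10 and 1.96e-06. The value of *Sp140* was 1.43, and *Atrx* gave 0.19 (adjusted p = 0.214). On day 3, *Sp100* (0.45, adjusted p = 0.0142) and *Pml* (0.47, adjusted p = 0.0157) missed the threshold. All 4 passed with DESeq2 or without a filter on low counts. *Sp100* also passed without replicate 2 of the treated or replicate 1 of the untreated *Trex1* WT/FL group (0.53 and 0.55), and *Pml* without replicate 1 of the untreated *Trex1* FL/FL group (0.56). *Sp110* no longer passed without replicate 1 of either treated group or replicate 2 of either untreated group of day 3, which left *Daxx* alone.

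The control comparisons gave no passing member with edgeR. *Sp140* was tested in them too, but only the comparison of untreated cells is free of the libraries on which the set was chosen. Without 4-OHT, the genotypes differed in 0 of 6 members on each day and over the mean of the days by edgeR. At an unadjusted p below 0.05 the counts were 0, 1, 0 and 3 on days 1 to 4 and 1 for the mean, and DESeq2 called 1 member on day 4 and 0 otherwise. Of all tested genes, 0.0% passed on each of days 1, 2 and 3, 0.0655% on day 4 and 0.0197% for the mean. At an unadjusted p below 0.05 there were 1129, 588, 468 and 2414 of all 15257 genes by day and 1432 for the mean. The member called by DESeq2 was *Atrx*, which was read at 160 and 162 CPM in untreated *Trex1* FL/FL and 206 and 196 in untreated *Trex1* WT/FL cells on day 4 (log2 fold change -0.32, 95% interval -0.47 to -0.18, edgeR adjusted p = 0.024). For the other 5 genes the mean differences lay between -0.05 and 0.04.

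4-OHT in *Trex1* WT/FL cells, which adds Cre activity and the loss of 1 allele, also changed 0 of 6 members on each day and over the mean, with edgeR and with DESeq2. The treated libraries are part of the contrast on which the set was chosen. The p-values of *Sp140* here may not be free of this choice. The counts at an unadjusted p below 0.05 were 0, 0, 4 and 3 of 6 on days 1 to 4 and 2 for the mean, and over all 15257 genes they were 378, 530, 1281 and 1080 by day and 1410 for the mean. The shares of all tested genes that passed were 0.00655%, 0.0918%, 0.341% and 0.216% by day and 0.557% for the mean. The largest mean values were 0.13 for *Daxx* (95% interval 0.04 to 0.22, adjusted p = 0.198) and 0.10 for *Sp140* (0.03 to 0.17, adjusted p = 0.249). On day 3, *Sp140* gave 0.24, *Sp100* 0.22, *Daxx* 0.22 and *Sp110* 0.20, and none passed the threshold.

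The members also moved over time without any 4-OHT. Averaged over both untreated genotypes, 5 of 6 members rose from day 1 to day 2, by 2.04 (log2) for *Sp100*, 1.80 for *Sp140*, 1.72 for *Sp110*, 1.48 for *Daxx* and 1.46 for *Pml*, with adjusted p between 9.63e-21 and 2.55e-16. This is a 4.11-fold change for *Sp100* and a 2.75-fold change for *Pml*. Of all tested genes, 25.6% rose at this step. *Atrx* gave 0.14 (adjusted p = 0.0184) and passed without replicate 1 of untreated *Trex1* WT/FL day 1 (0.18) or replicate 2 of untreated *Trex1* WT/FL day 2 (0.17). For *Sp100*, *Sp110*, *Sp140* and *Pml* the value of this step was above that of the genotype difference on any day, a comparison that was not tested.

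From day 2 to day 3 in untreated cells, *Sp140* (0.68, adjusted p = 2.2e-12), *Atrx* (0.33, adjusted p = 1.42e-06) and *Sp110* (0.29, adjusted p = 0.000305) rose, which is 3 of 6 where 24.8% of all tested genes rose. From day 3 to day 4, 5 of 6 members fell, where 11.8% of all tested genes fell. *Sp140* fell by 0.90, *Sp100* by 0.69, *Sp110* by 0.62, *Daxx* by 0.57 and *Pml* by 0.30. *Atrx* gave -0.12 (adjusted p = 0.0705).

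Treated *Trex1* WT/FL cells took the same steps. Their libraries are part of the contrast on which the set was chosen, so the tests of *Sp140* may not be free of this choice. From day 1 to day 2, 5 of 6 rose, led by *Sp100* with 2.40 and *Sp140* with 2.08 (20.2% of all tested genes). From day 2 to day 3, *Sp140* (0.73), *Sp110* (0.42) and *Atrx* (0.35) rose, so 3 of 6 (17.7% of all tested genes). Without replicate 2 of the treated *Trex1* WT/FL group of day 2, only *Sp140* passed at this step, and *Sp110* also missed the threshold without replicate 2 of day 3 (0.34, adjusted p = 0.0114). *Atrx* passed as higher from day 1 to day 2 without replicate 2 of day 2 (0.25, adjusted p = 0.00648). From day 3 to day 4, 5 of 6 fell (5.93% of all tested genes), by 1.00 for *Sp140*, 0.72 for *Sp100* and *Sp110*, 0.65 for *Daxx* and 0.39 for *Pml*. *Pml* no longer passed without replicate 2 of day 3 (adjusted p = 0.0532) or replicate 1 of day 4 (adjusted p = 0.0401). In treated *Trex1* FL/FL cells, the group means on days 3 and 4 were 521 ± 13.8 and 502 ± 9.49 CPM (SD, n = 2) for *Sp100*, 244 ± 9.11 and 284 ± 4.17 for *Sp110*, 199 ± 2.3 and 205 ± 4.4 for *Pml*, 196 ± 16.1 and 228 ± 4.33 for *Daxx* and 297 ± 14.1 and 247 ± 0.445 for *Sp140*.

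A yardstick was made of 10 genes that IFN induces, among them *Isg15*, *Irf7*, *Usp18*, *Ifit1*, *Ifit3*, *Mx1* and *Rsad2*. After 4-OHT, 9 of these 10 were higher in *Trex1* FL/FL cells on days 2 and 3 and 10 of 10 on day 4, with median log2 fold changes of 1.58, 1.28 and 2.71 (all genes -0.01, -0.01 and -0.04). The largest on day 4 were *Rsad2* (3.42), *Mx1* (3.27), *Ifit3* (2.93) and *Isg15* (2.91). The median of the 5 members other than *Sp140* was 0.67, 0.50 and 1.17 on these days. In untreated cells, all 10 rose from day 1 to day 2 (median 3.77) and all 10 fell from day 3 to day 4 (median -1.10). In both sets of genes the median genotype difference was lower on day 3 than on days 2 and 4, although among the 5 tested members 0 passed the test of the change from day 2 to day 3 by edgeR and DESeq2 (2 at an unadjusted p below 0.05) and *Usp18* of the yardstick gave 1.41 on day 2 and 1.43 on day 3. The summed level of the yardstick was 256 to 309 CPM in the group means of day 1, 1380 to 3630 in the control groups of days 2 to 4 and 7980 to 9070 in treated *Trex1* FL/FL cells of days 2 to 4.

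**Figure D3:**
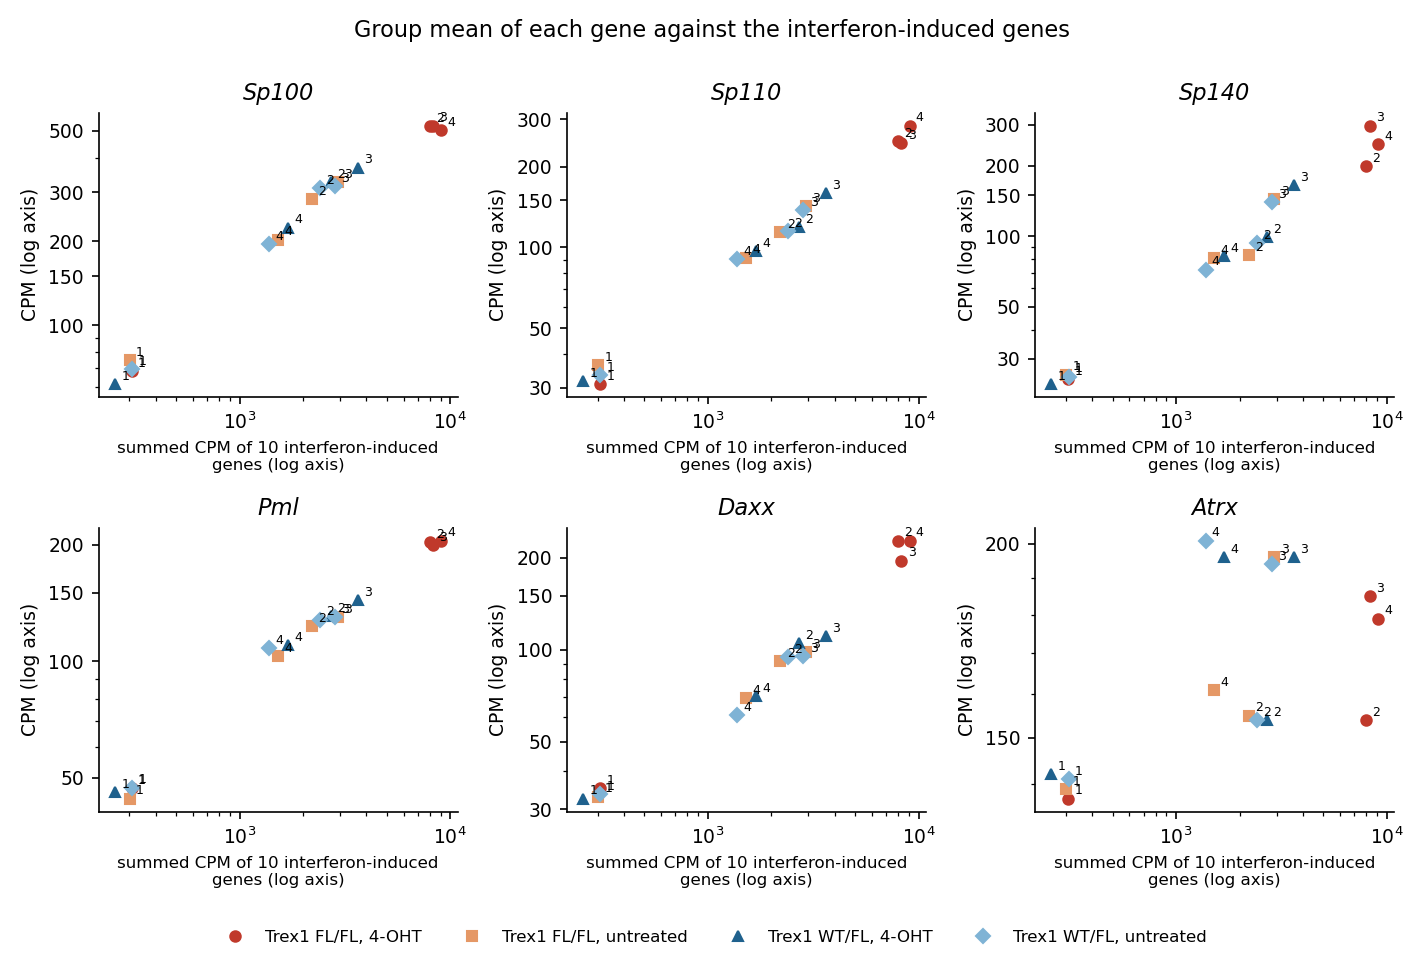
Group mean CPM of each gene against the summed CPM of the 10 IFN-induced genes, both on log axes, for the 16 groups, with the day beside each point. The genes other than *Atrx* lie close to a line (Pearson's r of 0.987 to 0.998 on the log2 scale), and *Atrx* scatters (0.607).

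Over the 16 group means, the log2 level of *Sp110* had a Pearson's r of 0.998 with the log2 sum of the yardstick, *Pml* 0.995, *Sp100* 0.992, *Sp140* 0.989, *Daxx* 0.987 and *Atrx* 0.607. The points share days, libraries and normalization, and these values describe the groups only. Among all tested genes, those most like *Sp100* over the group means of log2 CPM were *Rigi*, *Ifi47* and *Trim30a* (r of 0.999 each). For *Sp110* they were *Tap1* (0.998) and *Gvin4* (0.997), and for *Sp140* *Ms4a4c* (0.996), *Rnf114* (0.995) and *Morc3* (0.993). For *Pml* they were *Mx1* (0.998), *Ifi204* (0.997) and *Parp10* (0.997), and for *Daxx* *Phf11d* (0.995), *Phf11b* (0.994) and *Igtp* (0.994). *Atrx* was most like *Ash1l* (0.988), *Nipbl* (0.987) and *Mysm1* (0.984). Among the members, the closest pair was *Sp100* and *Pml* (0.994), and the physical partners *Daxx* and *Atrx* were the least alike (0.496).

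The wider machinery of PML bodies was set beside the shares of all tested genes that were higher in *Trex1* FL/FL cells after 4-OHT, 5.69%, 6.69% and 9.84% on days 2, 3 and 4. Of 13 other residents and regulators of the bodies, the numbers higher were 1, 2 and 1 on these days, 1 was lower on day 4, and the median log2 fold changes were 0.05, -0.03 and -0.02. The genes past the test on day 4 were the ATPase gene *Morc3* (0.53, adjusted p = 7.4e-08) and the helicase gene *Blm* (-0.81, adjusted p = 1.46e-05). Of 18 genes that attach or remove SUMO, the numbers higher were 1, 1 and 4 on these days, 2 were lower on day 4, and the median of day 4 was -0.01. The largest of these were the SUMO ligase gene *Ranbp2* (0.50), *Pias3* (-0.39), *Sumo3* (0.31) and *Senp6* (0.31), and *Pml*, with the smallest difference of the called members, gave 0.90.

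Of 15 partners in H3.3 deposition and heterochromatin, 2 were higher and 6 lower on day 4, with a median of -0.15, 1 was higher and 1 lower on day 2, and 2 passed on day 3, both lower (5.42% of all tested genes). The largest were the histone chaperone gene *Asf1b* (-0.74, adjusted p = 3.88e-05), the heterochromatin protein gene *Cbx5* (-0.51), *Ubn1* (-0.43) and the methyltransferase gene *Setdb1* (-0.35). Over all tested genes, 9.84% were higher and 11.7% lower on day 4. Proliferation genes moved on the same day: 9 of 10 were lower on day 4 with a median of -2.11, led by *Ccnb2* (-3.76), *Plk1* (-3.57), *Birc5* (-3.05) and *Mki67* (-2.83), and their part in the values of *Asf1b* and *Blm* was not tested.

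Of the other genes listed as SAND-domain and speckled relatives, 6 of 7 were tested, and *Sp140l1*, *Sp140l2* and *A530040E14Rik* were higher on days 2, 3 and 4. Of the 31-base words in their transcripts, 65.5%, 72.3% and 74.0% also occurred in other genes, so their counts are uncertain. These other genes include members: 35.1% of the words of *Sp140l1* occurred in *Sp140*. For *Sp140l2*, 20.8% occurred in *Sp110* and 14.0% in *Sp140*. On day 4 *Sp140l1*, *Sp140l2* and *A530040E14Rik* gave 2.15 (adjusted p = 7.36e-07), 2.33 (adjusted p = 1.02e-05) and 4.06 (adjusted p = 2.07e-09). *A530040E14Rik* is annotated as a long noncoding RNA gene. *Gmeb1*, which has a SAND domain but is no speckled protein, was lower on days 3 (-0.36) and 4 (-0.48). The median of the 6 was 0.77, 0.64 and 1.17 on days 2, 3 and 4.

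The neighbourhood of *Sp140* was examined after its position was known. Besides the members, 19 tested genes have their lower coordinate within 500 kb of that of *Sp140*. On day 4 after 4-OHT, 7 of these 19 were higher in *Trex1* FL/FL cells (9.84% of all tested genes) and 1 was lower, and on days 2 and 3 the numbers higher were 4 and 3 (5.69% and 6.69% of all tested genes). Several of them share sequence with each other. The higher ones on day 4 were *Sp140l1*, *A530040E14Rik*, *Gm52951* (3.18), *Gm7609* (3.02), *Gm16094* (1.86), *A630001G21Rik* (0.39) and *Itm2c* (0.29), and the lower one was *Psmd1* (-0.28). The lower coordinate of *Gm16094* lies 1.1 kb before that of *Sp140*. Directly beyond *Sp100*, *A630001G21Rik* changed little and *Cab39* gave 0.03 (adjusted p = 0.729).

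**Figure D4:**
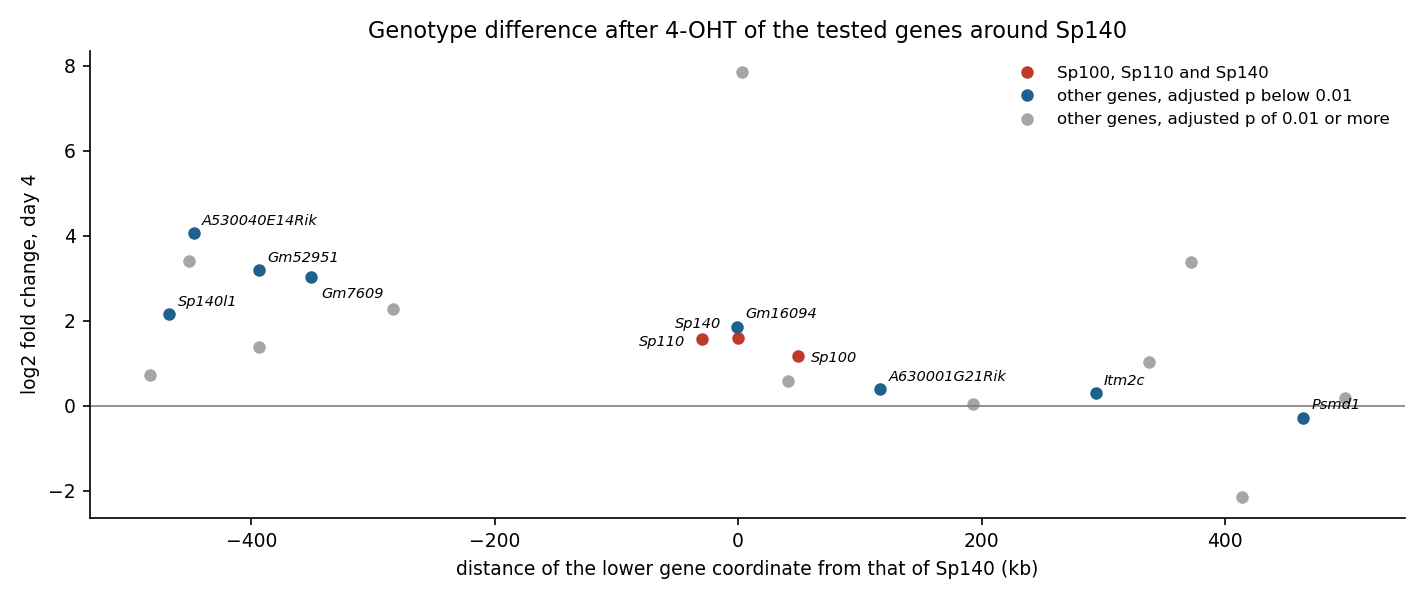
Log2 fold change of *Trex1* FL/FL against *Trex1* WT/FL cells after 4-OHT on day 4 for 22 tested genes, against the distance of their lower coordinate from that of *Sp140* in kb. Named points are members or passed the test. They lie at 1.17 or more from *Sp140l1* up to *Sp100* and at 0.39 or less beyond *Sp100*, and the highest point, *Gm10552* at 7.85, did not pass (adjusted p = 0.0164).

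Counts of *Sp140* and *Sp110* are uncertain because their transcripts share sequence with other genes, between which the authors' quantification had to divide reads. Of the 31-base words in *Sp140* transcripts, 77.2% occurred in transcripts of another gene, most of them in *Arhgef12* (26.5%), the antisense gene *Gm17017* (22.7%) and *Gm5831* (20.9%). For *Sp110* the share was 46.4%, with *Sp110-ps1* (23.3%), *Sp140l2* (9.79%) and *Sp110-ps2* (6.17%). It was 10.3% for *Sp100*, 9.55% for *Daxx*, mostly with the overlapping *BC051226*, 2.0% for *Pml* and 0.404% for *Atrx*.

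Of the genes named above as sharing words with *Sp140* and *Sp110*, those other than *Arhgef12* and *Sp140l2* had low counts. On day 4, *Arhgef12* was read at 37.6 to 44.3 CPM in treated *Trex1* FL/FL and at 58.6 to 60.2 in treated *Trex1* WT/FL cells, the opposite order to *Sp140*. *Gm17017* and *Gm5831* stayed below 1 CPM in both groups on every day, with at most 0.427 and 0.696. *Sp140l2* was read at 39.0 to 41.7 CPM against 7.76 to 8.28. The counts of a gene and of at most the 3 sharers with the most words were then summed, an alternative added after seeing the data. The log2 ratio of the group means was 0.85, 0.69 and 1.03 for *Sp140* on days 2, 3 and 4 (1.00, 0.85 and 1.59 for *Sp140* alone). For *Sp110* it was 1.08, 0.68 and 1.63 (1.06, 0.62 and 1.56 alone). *Sp140l1* and *Sp140l2* share 701 and 700 of the 3454 words of *Sp140* and were left out of its sum, so its values are no full correction.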

How the data were processed

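Reads had been assigned to libraries with JE, their quality inspected in FastQC 11.9, and transcripts of GRCm39 quantified in Salmon (version not given in the sources used here) and summed to genes by tximport. The authors deposited 1 table of estimated counts per gene, in whole numbers, for 32 libraries, and used DESeq2 1.32 for their own tests. Identifiers were paired with symbols by GENCODE vM39. 51048 of 54281 matched, and the others held 0.32% of counts. No row was a total, and 0 columns of per-sample values were left unused.

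Groups came from the labels for genotype, treatment and day. Counts were fitted in edgeR 4.0.16 (R 4.3.3) with TMM factors, filterByExpr at a minimum count of 10, 1 mean per group over all 32 libraries and the robust quasi-likelihood test. P-values were adjusted over 15257 genes after Benjamini and Hochberg. The filter can favour genes that are high in 1 group. The fit left 16 residual degrees of freedom, the common biological coefficient of variation was 0.0912, and intervals are 95%. The step was run on simulated counts with known changes in 1 group. These counts used the spread estimated by the same fit and held no other differences between groups, so they do not check the model. CPM were scaled by TMM factors (prior count 2 for log2 values, 0.125 for fold changes). Depth was 35120505 to 63760884 counts and each of the 6 genes held at least 992 counts in every library. Over the tested genes, replicates differed by more than counting error. For single genes, 2 libraries can lie closer than counting error, as for *Sp140* in treated *Trex1* FL/FL cells on day 4 (247 ± 0.445 CPM). Such an SD does not measure the spread between libraries. The first thresholds for the genotype comparison were an adjusted p below 0.01 with a log2 fold change above 1.5, the second the adjusted p alone, and both counts are given. The adjusted p alone was used for all other comparisons.

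All 6 genes were named. From each gene list, at most the 4 genes with the largest genotype difference on day 4 after 4-OHT among those past the test were named, and for each member the 3 genes with the highest r over the 16 group means, of which 1 is not reported here. Other genes were chosen after their values were seen: those that share words with a member, lie near *Sp140* or moved with it. Members and lists were chosen with earlier results of these data known. Alternatives were RLE and upper-quartile factors, no filter or a minimum of 50, DESeq2 1.42.0, fits of the treated libraries or of 1 day alone, and each library left out in turn. Words of 31 bases, from the GENCODE transcripts, were compared between genes, since estimated counts divide reads that fit several genes. Protein sequences were not used here.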

Additional observations from a re-analysis of the deposited data

Results flagged for a closer look

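No group could be searched for a library far from the others, since each held 2. The effect of 4-OHT differed between the genotypes, by the test of the difference itself, in 10 cases. On day 2 the difference of differences (log2) was 0.81 for *Sp100*, 1.07 for *Sp110*, 0.68 for *Pml* and 1.16 for *Daxx*. On day 3 it was 0.58 for *Sp110* and 0.78 for *Daxx*. On day 4 it was 1.11 for *Sp100*, 1.54 for *Sp110*, 0.97 for *Pml* and 1.52 for *Daxx*. All had a positive sign, with 4-OHT raising the gene more in *Trex1* FL/FL than in *Trex1* WT/FL cells.

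The genotype difference after 4-OHT also differed between days. From day 1 to day 2 it grew by 0.52 for *Sp100*, 1.09 for *Sp110*, 0.59 for *Pml* and 1.00 for *Daxx*, and from day 3 to day 4 by 0.67 for *Sp100*, 0.94 for *Sp110* and 0.88 for *Daxx*. These comparisons share the treated libraries with those the genes were chosen on.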

How the results depend on the processing

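Of 359 alternative counts of passing members, 341 stayed within 1.5 times the reported count, 13 were lower and 5 higher. Of 2106 alternative log2 fold changes of the 6 genes, 0 turned the direction of a called value, 22 lost a call and 16 gained one. Another 20 moved by more than the spread between replicates, all values of *Sp140* without a test and with 1 library left out. Tested values were sorted by their call instead, so the 20 do not mark *Sp140* as less stable. For *Daxx*, the genotype difference after 4-OHT on day 1 ran from -0.02 to 0.25 (main fit 0.12) and was listed as the same. With a log2 fold change above 1.5 also required, the genotype comparison after 4-OHT gave 0 members on days 2 and 3 and 2 on day 4. The difference of differences on day 3 gave 4 members without a filter and with DESeq2, and 1 to 3 with 1 library left out, where *Sp110* was lost in 4 fits. The growth of the genotype difference from day 1 to day 2 gave 2 to 4 members with 1 library left out. Its change from day 2 to day 3 gave 1 member (*Sp110*) without a filter. The genotypes without 4-OHT on day 4 gave 1 member (*Atrx*) without a filter and with DESeq2. The step from day 2 to day 3 in treated *Trex1* WT/FL cells gave 1 to 3 members with 1 library left out, and the genotype comparison after 4-OHT on day 3 gave 3 to 4. The causes were not tested. No paired analysis was possible because the labels give no replicate number, animal or batch. Sample titles run in parallel series within each genotype, and whether these mark animals or plates is not stated and was not tested.

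With 2 libraries per group, leaving out 1 leaves a group whose spread is taken from the others. The lowest count of any of the 6 genes in a library was 992. The division of reads among similar genes limits *Sp140* and *Sp110*.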
